A study of Mus musculus with 9 samples.

Results

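The 10 genes described here are genes used to recognise conventional dendritic cells, together with the chemokine Ccl22, and they were read in macrophages sorted from the mouse colon. They are the chemokines Ccl22 and Ccl17, the receptors Ccr7, Xcr1 and Flt3, the lectins Cd209a and Clec9a, the integrin chain Itgae and the transcription factors Zbtb46 and Batf3. They were taken by symbol from a table of 42454 genes, and all 10 were present. The list was drawn up with results of these libraries known, on the premise that Ccl22 moved against other members in the knockouts. In each of the 3 comparisons of genotypes, 0 members were called in the direction opposite to Ccl22, but this count cannot settle the premise. In p47phox-/- against wild type, 1.12% of genes tested and no member besides Ccl22 were called. In gp91phox-/- against wild type, 7.05% were called, and Ccl22 was not. Between the knockouts 9.93% were called, and the 7 members among them all went in the direction of Ccl22. RNA came from Ly6C low, MHC class II positive lamina propria macrophages of 6-week-old mice of 3 genotypes, with 3 libraries each. The genotypes were wild type (WT), p47phox-/-, labelled as lacking the organising subunit of the phagocyte NADPH oxidase encoded by Ncf1, and gp91phox-/-, labelled as lacking its catalytic subunit encoded by Cybb. Strain, sex, pooling of animals and whether controls were littermates are not given in the sources used here.

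Conventional dendritic cells take up antigen in the gut wall, mature, and carry it through lymph to T cells in draining nodes. The lineage depends on the cytokine receptor Flt3 and expresses the transcription factor Zbtb46. The branch called cDC1 needs Batf3 and carries Xcr1 and Clec9a, and the branch called cDC2 includes cells with Cd209a. In the intestine, many cells of both branches carry CD103, the product of Itgae. Maturing cells switch on Ccr7, which guides them to the node, and make CCL17 and CCL22, which attract cells bearing CCR4. Macrophages and conventional dendritic cells both display MHC class II, and macrophages can also make CCL17 and CCL22.

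Ncf1, the gene of p47phox, had 2718 to 3733 normalized counts in p47phox-/- and 8990 to 13617 in the other genotypes, so its transcript was lower but present, and these gene-level values do not show the altered part. Cybb was listed at 0 in every library, as were all 926 protein-coding genes matched to chromosome X, so the gp91phox-/- label could not be checked on its own gene. The libraries held 31141107 to 52797368 reads on genes. Macrophage markers were strong throughout: 15 of them, among them C1qa, Adgre1 and Mertk, summed to 1049611 to 1627461 normalized counts in WT libraries, 1250589 to 1900752 in p47phox-/- and 1203226 to 1649691 in gp91phox-/-. Apoe made up much of this sum (mean 749449 in WT). Within the list Cx3cr1 varied, with means of 4866 ± 749.5 in WT, 2184 ± 2492 in p47phox-/- and 19152 ± 5194 in gp91phox-/- (SD, n = 3). A list of 12 B cell markers summed to 19895 to 31863 in WT and 19104 to 28723 in p47phox-/-, but to 4510 to 5896 in gp91phox-/-. Replicates 2 and 3 of p47phox-/- had reads on 14323 and 14268 genes against 15825 to 18760 in the other 7 libraries. They also stood apart in a principal component analysis, at -95.1 and 98.3 on the second component against -13.9 to 11.2 for the others. Log2 fold changes of the members are therefore also given without these libraries, where p47phox-/- is 1 library and the spread in the fit comes from the other 2 groups, so that these are values for that library rather than a test of the genotype.

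The chemokines Ccl22 and Ccl17 were highest in p47phox-/-. Both lie on mouse chromosome 8 (GRCm38), protein-coding and on the same strand, with Ccl22 at 94745684 to 94751388 and Ccl17 at 94809380 to 94812038. The 250 bases before the start site of each are shown (RefSeq, GRCm38.p6, plus strand), because this neighbouring pair was high in the same libraries. Capitals mark matches to short patterns that factors known to act on these genes can bind, searched on both strands. The NF-kB pattern was GGG and CC with any 5 bases between them, and the STAT6 pattern TTC and GAA with any 4 bases between them. The Ccl22 window is chr8:94745434-94745683 and the Ccl17 window is chr8:94810203-94810452, which lies before a RefSeq start site inside the annotated span of the gene.
Ccl22: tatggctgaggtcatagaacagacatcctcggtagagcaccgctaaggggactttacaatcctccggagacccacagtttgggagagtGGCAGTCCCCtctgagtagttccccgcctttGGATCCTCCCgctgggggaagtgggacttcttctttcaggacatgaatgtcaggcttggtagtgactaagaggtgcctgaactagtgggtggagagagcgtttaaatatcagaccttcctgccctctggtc
Ccl17: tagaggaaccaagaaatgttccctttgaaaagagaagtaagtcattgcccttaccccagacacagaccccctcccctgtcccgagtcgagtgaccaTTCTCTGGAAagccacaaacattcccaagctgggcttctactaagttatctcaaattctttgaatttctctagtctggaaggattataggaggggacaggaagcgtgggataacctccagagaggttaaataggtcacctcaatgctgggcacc
The Ccl22 window held the NF-kB pattern at 2 places, starting 162 and 131 bases before the start site. The Ccl17 window held the STAT6 pattern once, starting 154 bases before it. Of 27025 promoters of the same length, 45.4% held the NF-kB pattern and 5.86% the STAT6 pattern, so the former match is common. Of the 8 members with a promoter in the table, 2 held the NF-kB pattern and 1 the STAT6 pattern. Patterns for the factor AP-1 and for an interferon response element were searched too. Neither occurred in the Ccl22 or the Ccl17 window, and 1 and 0 of the 8 members held them. These matches describe the letters only.

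Ccl22 had normalized counts of 329, 530.15 and 383 in WT replicates 1 to 3. It had 1344, 1533 and 1650.1 in p47phox-/- and 139, 388 and 238 in gp91phox-/-. Every p47phox-/- library lay above every other library, while WT and gp91phox-/- overlapped. Against WT, Ccl22 rose in p47phox-/- from 414 ± 104 to 1509 ± 155 (SD, n = 3), a log2 fold change of 1.89 (SE 0.31, adjusted p = 0.0149, limma). In gp91phox-/- its mean was 255 ± 125, and the log2 fold change of -0.79 against WT (95% interval -1.47 to -0.11) did not pass the threshold (adjusted p = 0.16). The knockouts differed from each other by -2.68 on the log2 scale, gp91phox-/- minus p47phox-/- (SE 0.31, adjusted p = 0.000281), and this call held in all 22 alternative analyses. The rise in p47phox-/- lost its call in 6 of 22, among them without WT replicate 1 (adjusted p = 0.0598), WT replicate 3 (0.0745) or p47phox-/- replicate 3 (0.0703). With replicate 1 as the only p47phox-/- library its log2 fold change was 1.72, with spread assumed from the other groups (adjusted p = 0.285). In gp91phox-/- a lower level was called without gp91phox-/- replicate 2 (log2 fold change -1.15, adjusted p = 0.0419).

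Ccl17, the other CCR4 ligand, was a low-count gene, listed at 0, 22 and 19.2 in WT. It had 84.8, 116 and 98.1 normalized counts in p47phox-/- and 7.28, 1.81 and 8.95 in gp91phox-/-. Again the 3 p47phox-/- libraries lay above the other 6. Behind these values were 51 reads in all WT libraries, 336 in p47phox-/- and 21 in gp91phox-/-. The ratio of p47phox-/- to WT means was 7.25, but the fitted log2 fold change of 3.69 had a 95% interval of 1.31 to 6.07 and was not called (adjusted p = 0.133). That value depended on the WT library listed at 0, being 2.21 without WT replicate 1, 4.47 without WT replicate 2 and 4.38 without WT replicate 3, in each case without a call. DESeq2 on recovered reads called it (log2 fold change 2.84, adjusted p = 0.0399), and edgeR did not (2.83, adjusted p = 0.227). Ccl17 was called lower in gp91phox-/- than in p47phox-/- (log2 fold change -4.02, SE 1.09, adjusted p = 0.0371), a call that was kept in 11 of 22 alternatives. It was lost without any 1 of the 6 knockout libraries (adjusted p up to 0.283 over all alternatives). Against WT, gp91phox-/- gave -0.34 (95% interval -2.72 to 2.05), which leaves the size of any difference undetermined at this depth.

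**Figure D1:**
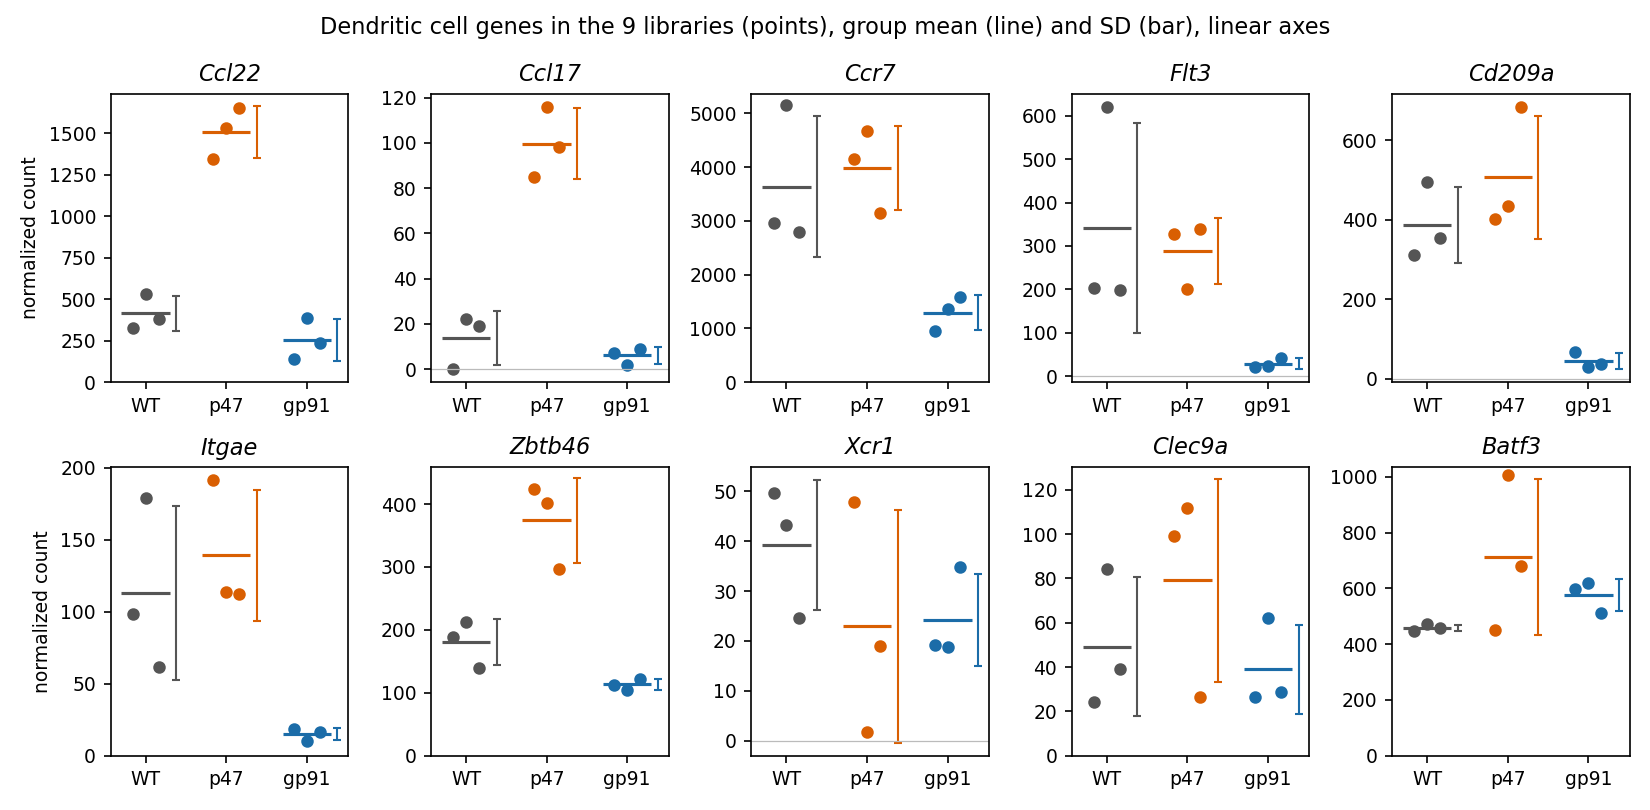
Normalized count (linear y axis, a different range for each gene) of the 10 genes in each library, with WT, p47phox-/- (p47) and gp91phox-/- (gp91) along the x axis, the group mean as a line and the SD as a bar beside the points. Ccl22, Ccl17 and Zbtb46 have all p47phox-/- points above the other groups, while Ccr7, Flt3, Cd209a and Itgae have all gp91phox-/- points below them.

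Among the receptors, Ccr7 and Flt3 fell in gp91phox-/- and showed no call in p47phox-/-. Ccr7, the receptor that directs mature dendritic cells and lymphocytes towards lymph node chemokines (chromosome 11, 99144199 to 99155077), had 2961, 5161 and 2799 normalized counts in WT. Its values were 4145, 4673 and 3143 in p47phox-/-, and 944, 1355 and 1579 in gp91phox-/-. The gp91phox-/- libraries did not reach the lowest of the other 6. Ccr7 fell by 1.47 on the log2 scale in gp91phox-/- against WT (SE 0.25, adjusted p = 0.00374). It was also lower than in p47phox-/- (log2 fold change -1.64, SE 0.25, adjusted p = 0.00168). In p47phox-/- against WT it was 0.17 (95% interval -0.38 to 0.72, adjusted p = 0.789). B and T cells carry Ccr7 too, and 11 of 12 B cell markers fell in gp91phox-/- against WT, where 4.53% of genes tested were lower. The part of those cells in the fall of Ccr7 was not tested.

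Flt3, the receptor for the cytokine that sustains the dendritic cell lineage, also marks early lymphoid progenitors. It lies on chromosome 5 at 147330741 to 147400489, on the chromosome that also carries Ncf1. WT libraries gave 204, 621 and 199 normalized counts, with replicate 2 far above the others. The p47phox-/- libraries had 326, 201 and 338, inside the WT range, and the gp91phox-/- libraries had 20.9, 22.3 and 42.9, far under it. Flt3 fell by 3.38 on the log2 scale in gp91phox-/- against WT (SE 0.46, adjusted p = 0.000781), where the means were 341 ± 242 and 28.7 ± 12.3. This fall also passed in all 22 alternatives (adjusted p up to 0.0137). Without WT replicate 2 the p47phox-/- difference turned from -0.06 to 0.48, in neither case called (adjusted p = 0.966 and 0.635).

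Xcr1, the receptor for the chemokine XCL1 and a marker of cDC1 (chromosome 9, 123852315 to 123862029), was near the lower limit of what was tested. It had 49.7, 43.3 and 24.7 normalized counts in WT, 47.8, 1.76 and 19.1 in p47phox-/- and 19.1, 18.7 and 34.9 in gp91phox-/-. The 3 groups overlapped, and the 2 low p47phox-/- values were those of the libraries with reads on fewer genes. No comparison called it (adjusted p = 0.464, 0.732 and 0.616 for p47phox-/- versus WT, gp91phox-/- versus WT and gp91phox-/- versus p47phox-/-). Its log2 fold changes against WT, -1.47 in p47phox-/- and -0.67 in gp91phox-/-, had an SE of 0.90.

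The lectin Cd209a, a mouse relative of DC-SIGN that binds sugars on microbes, separated the gp91phox-/- libraries widely. It lies on chromosome 8 at 3743395 to 3748984, far from the chemokine pair. Normalized counts were 311, 494 and 354 in WT, 400.4, 433 and 684 in p47phox-/-, and 66.4, 29.6 and 35.8 in gp91phox-/-. Cd209a fell by 3.17 on the log2 scale in gp91phox-/- against WT (SE 0.34, adjusted p = 0.000137), from 386 ± 95.9 to 43.9 ± 19.7. It was also lower in gp91phox-/- than in p47phox-/- (log2 fold change -3.54, SE 0.34, adjusted p = 5.2e-05). The p47phox-/- libraries overlapped WT (log2 fold change 0.37, 95% interval -0.36 to 1.11). Clec9a, a receptor on cDC1 for actin exposed by dead cells (chromosome 6, 129408862 to 129424764), gave no call. Its values were 24, 84.4 and 39.3 in WT, 99, 112 and 26.7 in p47phox-/-, and 26.4, 62.1 and 28.6 in gp91phox-/-, which overlapped throughout. Clec9a shares exonic sequence with Clec1b on the same strand in the annotation, so reads there could not be assigned to either with certainty.

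Itgae, the integrin alpha chain of CD103, is carried by gut dendritic cells and by many intraepithelial T cells and binds E-cadherin. Located on chromosome 11 (73090505 to 73147449), it had 98.6, 179 and 61.3 normalized counts in WT. The p47phox-/- libraries had 191, 113 and 112, and the gp91phox-/- libraries 18.2, 10.3 and 16.1. The highest gp91phox-/- value was thus under the lowest value elsewhere. Itgae fell by 2.75 on the log2 scale in gp91phox-/- against WT (SE 0.47, adjusted p = 0.00373), and all 22 alternatives called it. Its beta partner Itgb7 also fell there (log2 fold change -0.72, adjusted p = 0.0461), but that call was lost in 13 alternatives.

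The transcription factors Zbtb46 and Batf3 followed other patterns. Zbtb46, which marks the conventional dendritic cell lineage (chromosome 2, 181371009 to 181493262), had 189, 212 and 139.9 normalized counts in WT. It had 425, 401 and 297 in p47phox-/- and 113, 105 and 123 in gp91phox-/-. These were 3 ranges without overlap, p47phox-/- above WT and gp91phox-/- below. Neither knockout was called against WT, with a log2 fold change of 1.05 in p47phox-/- (SE 0.25, adjusted p = 0.0712) and -0.65 in gp91phox-/- (SE 0.25, adjusted p = 0.155). DESeq2 on recovered reads called the p47phox-/- difference (adjusted p = 0.00433). Between the knockouts, Zbtb46 was lower in gp91phox-/- (log2 fold change -1.70, SE 0.25, adjusted p = 0.00135). Like Ccl22, it thus had its highest values in p47phox-/-. Batf3, a factor needed for cDC1 that activated macrophages and T cells also express (chromosome 1, 191098414 to 191108943), had 448, 471 and 457 in WT. Its p47phox-/- values spread from 451 in replicate 1 to 1007 in replicate 2, with 681 in replicate 3. The gp91phox-/- libraries had 599, 618 and 511, above each WT library, but no comparison was called (adjusted p = 0.308 in p47phox-/- and 0.504 in gp91phox-/- against WT). Without p47phox-/- replicates 2 and 3 the p47phox-/- difference of Batf3 was -0.025 instead of 0.56.

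Counted together, the genes gave a different picture in each knockout. In p47phox-/- against WT, 1 of the 10 rose (Ccl22) and 9 were not called, where 1.12% of the 14404 genes tested were called, 0.625% of them higher and 0.5% lower. Their median log2 fold change was 0.47, beside -0.02 for all genes tested. The 3 p47phox-/- libraries lay above all WT libraries for 3 of the 10 (Ccl22, Ccl17 and Zbtb46), as they did for 9.25% of genes tested, and under them for 0 of the 10 (8.49% of genes tested). In gp91phox-/- against WT, 4 of the 10 fell (Flt3, Cd209a, Itgae and Ccr7) and 6 were not called, where 7.05% of genes were called, 4.53% lower and 2.53% higher. The median of the 10 was -0.73, beside 0.01 for all genes tested. All gp91phox-/- libraries lay under all WT libraries for 5 of the 10, those 4 and Zbtb46 (18.2% of genes tested), and above them for Batf3 (15.1%). The 2 comparisons share the WT libraries. In bulk RNA such as this, fewer cells of a type and less RNA per cell cannot be told apart.

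The direct comparison of the knockouts is also the test of whether their effects differ. In gp91phox-/- against p47phox-/-, 7 of the 10 were lower (Ccl22, Ccl17, Ccr7, Flt3, Cd209a, Itgae and Zbtb46) and 3 were not called, where 9.93% of genes were called, 5.96% lower and 3.97% higher. The same 7 had every gp91phox-/- library under every p47phox-/- library, as did 17.3% of genes tested, and the reverse held for 0 of the 10 (13.6%). With replicate 1 as the only p47phox-/- library, the log2 fold changes of the 7 ran from -1.71 for Ccr7 to -3.80 for Ccl17, all negative. For Flt3 the difference was -3.32 (SE 0.46, adjusted p = 0.000878) and for Itgae -3.13 (SE 0.47, adjusted p = 0.00141). The median of the 10 was -2.19, beside 0.02 for all genes tested. Against WT, that p47phox-/- library alone gave 3.47 for Ccl17, 1.25 for Zbtb46, 1.18 for Clec9a, 0.89 for Itgae, 0.24 for Ccr7 and 0.08 for Cd209a. These genes therefore fell into those high in p47phox-/- (Ccl22, Ccl17, Zbtb46), those not called in p47phox-/- against WT and lower in gp91phox-/- (Ccr7, Flt3, Cd209a, Itgae) and those called nowhere (Xcr1, Clec9a, Batf3). The first of these sets rests on values, since only Ccl22 in it was called against WT. For the second, the p47phox-/- intervals against WT were wide, -1.05 to 0.93 for Flt3 and -0.63 to 1.41 for Itgae.

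**Figure D2:**
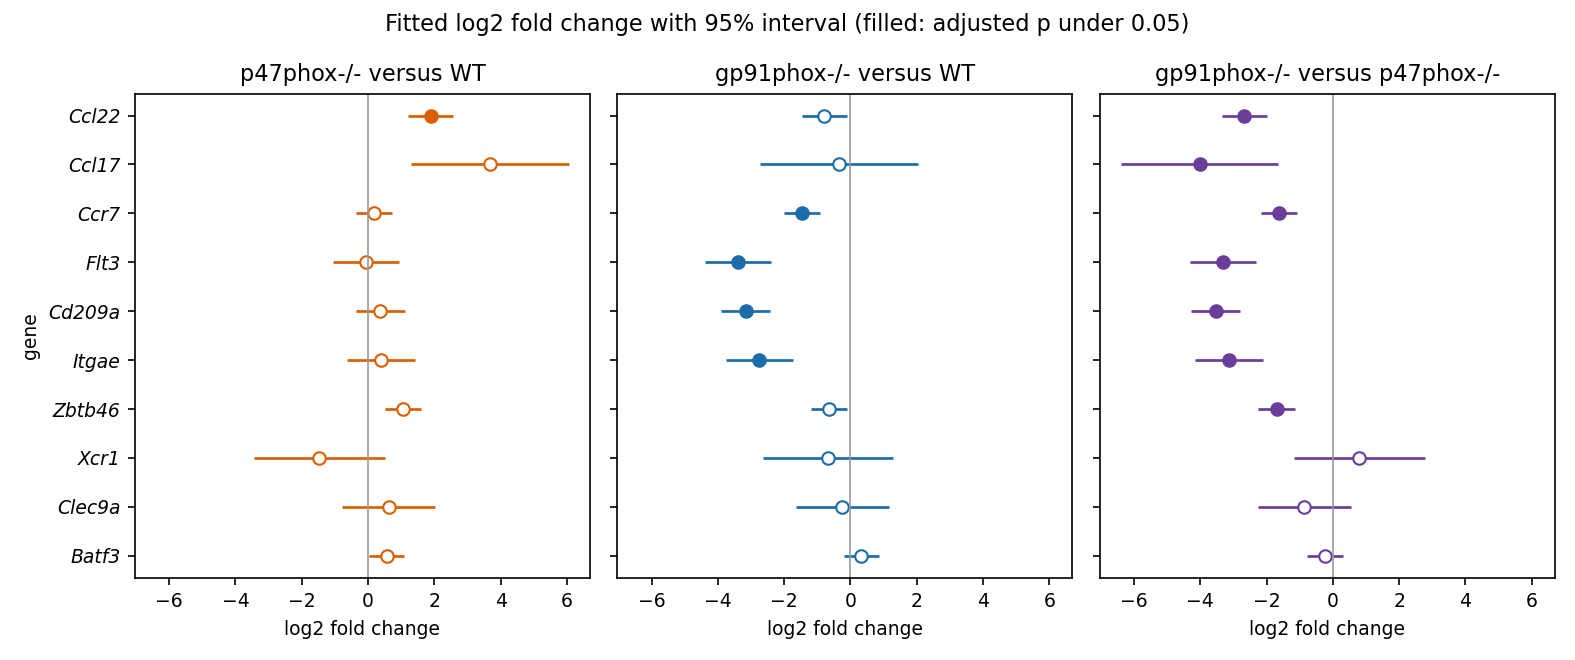
Fitted log2 fold change (x axis) with its 95% interval for each of the 10 genes (y axis) in the 3 comparisons, filled where the adjusted p was under 0.05. In p47phox-/- versus WT 1 point is filled, in gp91phox-/- versus WT 4, and in gp91phox-/- versus p47phox-/- 7, all of these on the negative side in the latter 2 comparisons.

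Levels of different genes can be set beside each other only per length, and were therefore divided by the kilobases of annotated exon (GENCODE M21). On this scale of normalized count per kilobase, Ccr7 was the most abundant of the 10 in WT (1840.3 ± 667, SD, n = 3). Batf3 (287 ± 7.05), Cd209a (244 ± 60.6) and Ccl22 (178 ± 44.8) followed, of which Batf3 and Cd209a, and Cd209a and Ccl22, lay within their combined spread. Flt3 (55.3 ± 39.2), Ccl17 (26.7 ± 23.3), Itgae (24.7 ± 13.2), Zbtb46 (21.2 ± 4.34), Clec9a (15 ± 9.54) and Xcr1 (8.81 ± 2.92) were lower and neighbours among them did not differ beyond their spread. In p47phox-/- Ccl22 stood second at 649 ± 66.5 per kilobase, behind Ccr7 at 2016 ± 393 while Batf3 followed at 446 ± 175, a gap from Ccl22 within their combined spread. In gp91phox-/- Flt3 (4.65 ± 2) and Itgae (3.24 ± 0.898) came last, under Xcr1 (5.44 ± 2.07). No pair among Flt3, Itgae and Xcr1 differed beyond its combined spread.

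The chemokine pair was then viewed among its chromosomal neighbours, a window of 200 kb to either side chosen after the values were seen. Between Ccl22 and Ccl17 lies Cx3cl1, which encodes fractalkine, the ligand of the macrophage receptor CX3CR1. Cx3cl1 had 98.8 ± 13.4 normalized counts in WT, 259 ± 93.6 in p47phox-/- and 106 ± 5.68 in gp91phox-/- (SD, n = 3). Its p47phox-/- libraries lay above all others, at a log2 fold change of 1.33 against WT that narrowly missed the threshold (SE 0.30, adjusted p = 0.0541). It was called in 4 of 22 alternatives, among them DESeq2 (adjusted p = 0.00164). Between the knockouts Cx3cl1 was called, lower in gp91phox-/- (log2 fold change -1.22, adjusted p = 0.0229). That call was lost in 5 of 22 alternatives, without any 1 of the gp91phox-/- libraries, without p47phox-/- replicate 3, and with p47phox-/- replicate 1 alone (-0.985, adjusted p = 0.16). Of the other genes tested in the window, Adgrg1 alone also had every p47phox-/- library above WT. Ciapin1, next to Ccl17, was 0.23 in p47phox-/- against WT, and Arl2bp 0.09, with overlapping libraries. Larger differences without a call were 0.97 for Dok4, -0.87 for Adgrg5 and -0.75 for Ccdc102a. Their p47phox-/- and WT libraries overlapped too. Adgrg1, the farthest gene on the Ccl17 side, was 0.72 in p47phox-/- without a call (adjusted p = 0.293), and fell in gp91phox-/- (log2 fold change -1.20, adjusted p = 0.0322), as did Arl2bp (-0.87, adjusted p = 0.0153).

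**Figure D3:**
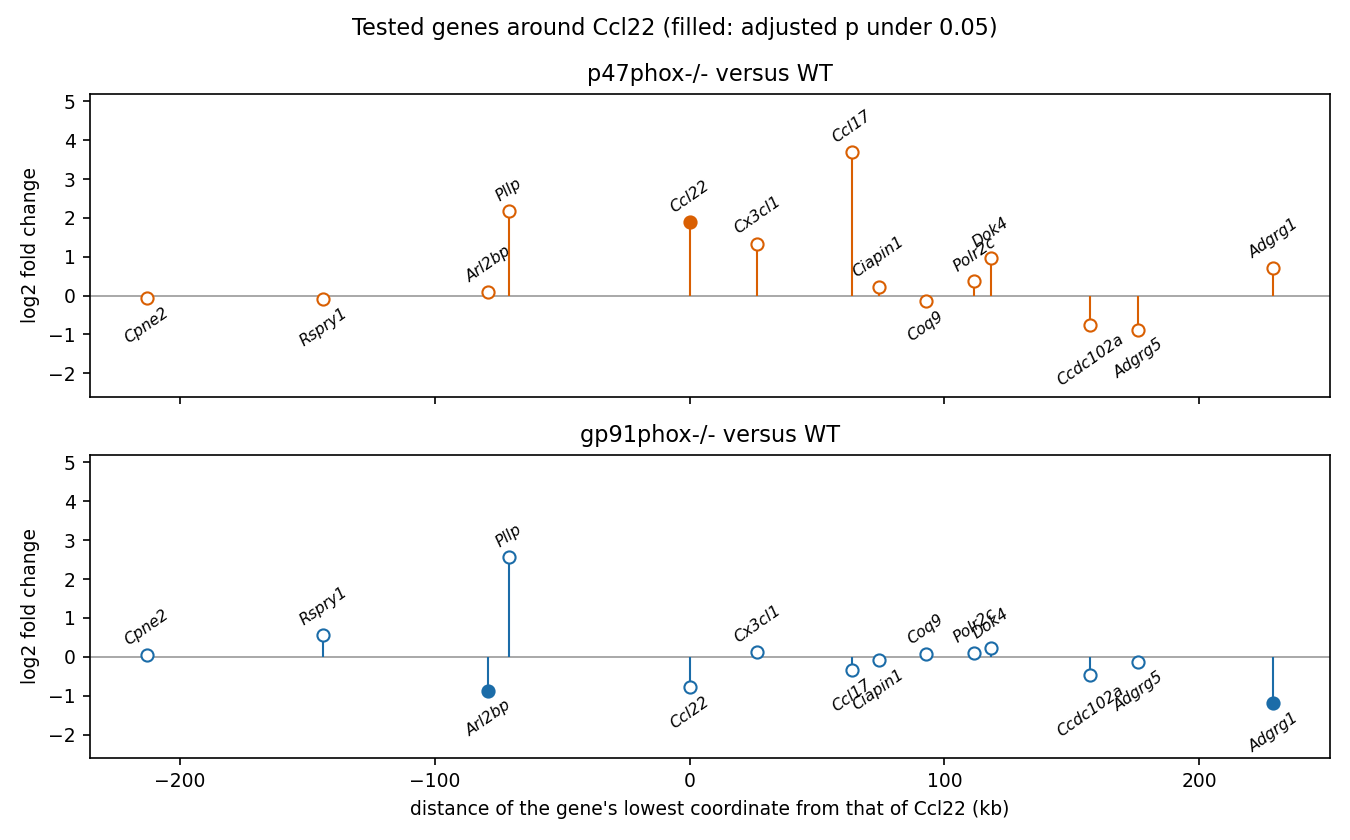
Log2 fold change against WT (y axis) of the tested genes within 200 kb of Ccl22 or Ccl17, by the distance in kilobases of each gene's lowest coordinate from that of Ccl22 (x axis), filled where the adjusted p was under 0.05. In p47phox-/- Ccl22, Cx3cl1 and Ccl17 reach 1.89, 1.33 and 3.69, and Pllp, at a WT mean of 4.42 normalized counts, 2.18 with overlapping libraries; in gp91phox-/- the 3 chemokines lie between -0.79 and 0.11.

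The 10 were then set within wider lists of dendritic cell genes. The general, cDC1, cDC2 and mature lists together contain all 10, and their counts and medians include them. They are therefore not a separate comparison. Of 13 tested genes of conventional dendritic cells in general, 5 fell in gp91phox-/- against WT and 8 were not called. Of all genes tested, 4.53% were lower there. The median log2 fold change of the 13 was -0.65, the value of the member Zbtb46. Besides Flt3, those that fell were the inhibitory receptor Btla (-5.64), the transcription factor Bcl11a (-3.75), the chromatin protein Hmgn3 (-1.68) and the corepressor Cbfa2t3 (-1.48). The level of Btla went from 709 ± 437 in WT to 11.6 ± 1.63 (SD, n = 3). Btla and Bcl11a are also genes of B cells, whose markers fell in the same libraries (11 of 12, median log2 fold change -7.65). The part of B cell RNA in these values was not tested. Kit, Dpp4 and the CD11c gene Itgax were not called in gp91phox-/- (log2 fold changes -0.20, -0.84 and 0.13). In p47phox-/- against WT, limma called 0 of the 13, with 3 at an unadjusted p under 0.05, 0 called by edgeR and 2 by DESeq2. Limma called 1.12% of the 14404 genes tested there, edgeR 133 genes and DESeq2 678. Genes at an unadjusted p under 0.05 were not counted over all genes.

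In the cDC1 list, 3 of 16 tested genes fell in gp91phox-/- against WT and 13 were not called (median -0.09). Of all genes tested, 4.53% fell and 2.53% rose there. Itgae was joined by Cd24a (log2 fold change -2.49) and Gcsam (-3.63), both of which B cells also express. Irf8, the factor that specifies cDC1 and is also active in macrophages and B cells, averaged 11092 ± 1120 in WT against 10977 ± 371 in gp91phox-/- (log2 fold change -0.01, adjusted p = 0.984). The adhesion molecule Cadm1 was likewise at 0.0034. In p47phox-/-, limma called 0 of the 16, with 1 at an unadjusted p under 0.05 and 0 by edgeR or DESeq2. Of all 14404 genes tested in p47phox-/-, limma called 1.12%, edgeR 133 genes and DESeq2 678. In the cDC2 list, 3 of 16 fell, 1 rose and 12 were not called (median -0.14). Dtx1, a Notch target (-6.36), and the cytokine Ltb (-3.32) fell with Cd209a, and both are known from B cells as well. The lectin Mgl2 rose in gp91phox-/- (0.94, adjusted p = 0.0118) and also in p47phox-/- (1.55, adjusted p = 0.0039), from 2780 ± 743 in WT to 5200.3 ± 534 and 8007 ± 1208. Its neighbour in function Clec10a rose in p47phox-/- (0.98, adjusted p = 0.0163), and in gp91phox-/- it was 0.60 without a call (adjusted p = 0.0526), with every library of both knockouts above WT. With p47phox-/- replicate 1 alone, Mgl2 was 1.35 (adjusted p = 0.137) and Clec10a 0.70 (adjusted p = 0.332). Both are lectins of macrophages as well as of dendritic cells. Irf4, the factor of cDC2 that also drives Ccl17 in monocytes, was not called against WT (0.44 in p47phox-/- and -0.15 in gp91phox-/-).

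The list of mature or migratory dendritic cell genes had 7 of 30 higher in gp91phox-/- against WT, 2 lower and 21 not called (median 0.17), where 2.53% of all genes tested were higher and 4.53% lower. Among those that rose were the costimulatory receptor Cd40 (1.14), Apol7c (0.95), Cd83 (0.84), the adaptor Samsn1 (0.73) and Marcksl1 (0.61). For Cd40 the mean normalized count went from 2106 ± 285 to 4710 ± 1209. Activated macrophages express Cd40 and Cd83 too. Ccr7 and Cd200 (-1.62) fell, and Fscn1, the actin-bundling protein of mature dendritic cells, was not called (-0.21, adjusted p = 0.601). In p47phox-/-, where 0.625% of all genes tested rose, Ccl22 was the 1 gene of 30 that rose, and 29 were not called (median 0.25). DESeq2 called 6 higher and 1 lower there, beside 344 higher and 334 lower among all 14404 genes tested. Between the knockouts 3 of the 30 were higher in gp91phox-/- and 7 lower, 3 of the lower ones being Ccl17, Ccl22 and Ccr7. Of all genes tested, 3.97% were higher and 5.96% lower in that comparison.

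**Figure D4:**
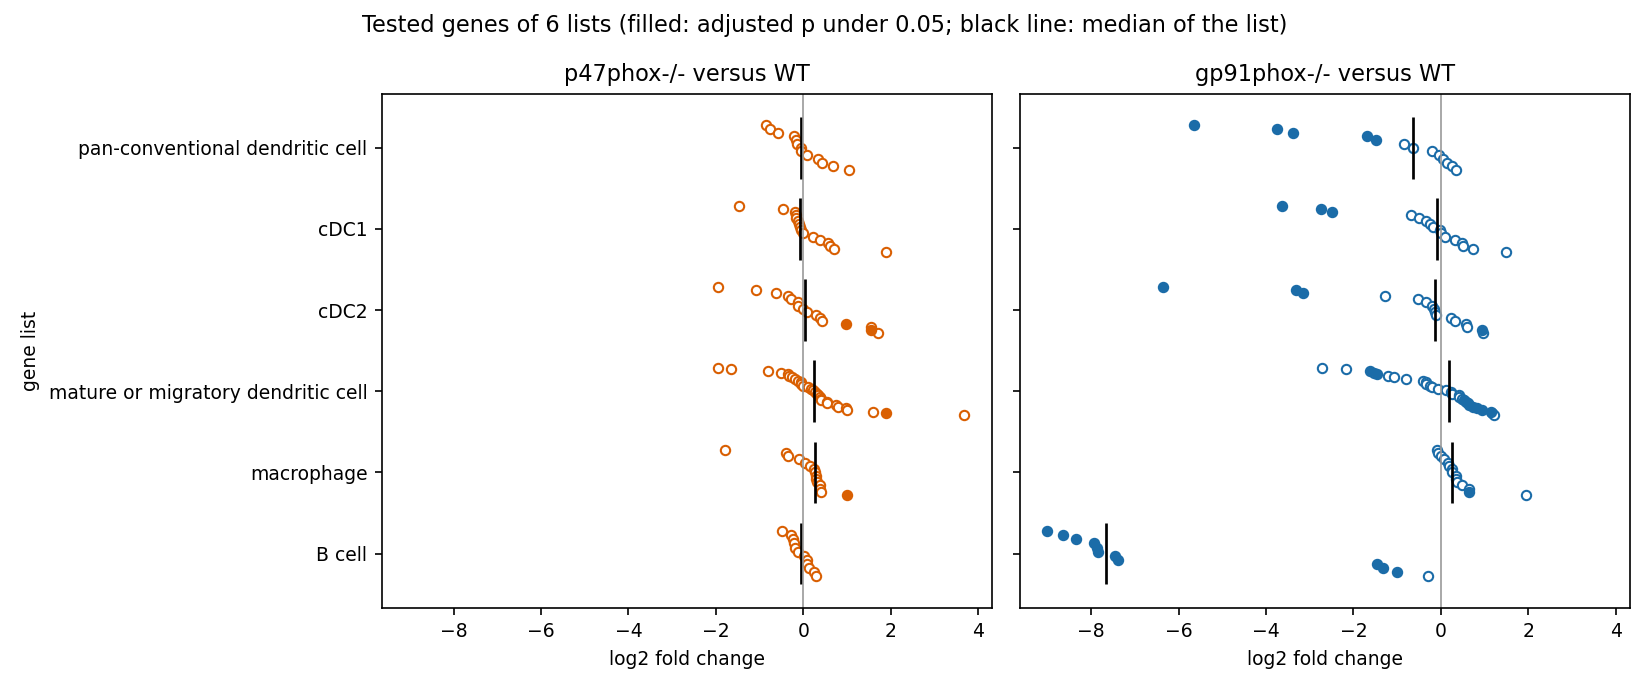
Log2 fold change (x axis) of each tested gene in 6 gene lists (y axis) for p47phox-/- versus WT and gp91phox-/- versus WT, filled where the adjusted p was under 0.05, with the list's median as a black line. In gp91phox-/- the B cell list has a median of -7.65, the general dendritic cell list of -0.65 and the macrophage list of 0.25, and in p47phox-/- these medians are -0.05, -0.06 and 0.26.

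Of 9 tested ligands, receptors and partner chains, 1 rose and 1 fell in gp91phox-/- against WT (2.53% and 4.53% of all genes tested). The one that rose was Ccrl2, a non-signalling chemokine receptor, from 9421 ± 953 to 24442 ± 715 (log2 fold change 1.38, adjusted p = 1.99e-05). The other was Itgb7. In gp91phox-/- against p47phox-/-, 4 of the 9 were called: Cx3cr1 (3.74, adjusted p = 0.00164), the E-cadherin gene Cdh1 (1.88) and Ccrl2 (1.37) were higher and Cx3cl1 lower. Of all genes tested, 3.97% were higher and 5.96% lower in that comparison. Against WT, Cx3cr1 was not called in gp91phox-/- (1.95, adjusted p = 0.0622) or p47phox-/- (-1.79, adjusted p = 0.161). Flt3l, the ligand of Flt3, had a log2 fold change of 0.14 in gp91phox-/- and 0.17 in p47phox-/-. Ccr4, the receptor of CCL17 and CCL22, was near 0 throughout and did not pass the filter. It was listed at 0 in every p47phox-/- library, with means of 7.5 ± 6.6 in WT and 0.603 ± 1.05 in gp91phox-/-. In p47phox-/- against WT, limma called 1.12% of all genes tested. Of 20 tested signals and factors known to induce Ccl17 and Ccl22, limma called 0 there. For these 20, 7 had an unadjusted p under 0.05, and edgeR called 0 and DESeq2 1. Of all 14404 genes tested, edgeR called 133 and DESeq2 678 in p47phox-/- against WT. Among them Relb, an NF-kB subunit active in dendritic cell maturation, had 5158 ± 611 in WT and 6836 ± 751 in p47phox-/- without overlap (log2 fold change 0.41, adjusted p = 0.164). In gp91phox-/- against p47phox-/-, 4 of the 20 were lower, namely Il7r (-0.76), Nfkb1 (-0.58), Crlf2 (-0.51) and Relb (-0.47), each called in fewer than all alternatives. In the same comparison edgeR called 0 of the 20, and DESeq2 1 higher and 5 lower. Over all 14404 genes tested, edgeR called 1315 between the knockouts, and DESeq2 1092 higher and 1184 lower. Of 26 dendritic cell transcription factors, Batf3 and Zbtb46 among them, 3 fell in gp91phox-/- against WT, namely Spib (-6.02), Bcl11a (-3.75) and Gfi1 (-2.58). Batf2 (1.53), Id2 (0.86) and Batf (0.59) rose there. In p47phox-/- against WT, limma called 0 of the 26 factors (9 at an unadjusted p under 0.05, 0 by edgeR, 5 by DESeq2). It called 0 of the 9 partners (3, 0 and 1 likewise). Both counts by DESeq2 stand beside its 678 calls over all 14404 genes tested there. Genes at an unadjusted p were not counted over all genes. Spib is shared with B cells and plasmacytoid dendritic cells.

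Markers of other cells that moved with these genes were measured in the same libraries. The T cell and innate lymphoid list had 2 of 9 tested genes lower in gp91phox-/- (Cd2 and Lck), where 4.53% of all genes tested were lower. Its 13 genes summed to 11251 to 15148 normalized counts in gp91phox-/- and to 9256 to 15534 in WT. Most of that sum was Cd4 (means 11223 and 9813), which gut macrophages also express. Cd3e, which defines T cells, had means of 7.61 in WT, 3.36 in p47phox-/- and 6.83 in gp91phox-/-. Fibroblast and smooth muscle markers, 12 genes, summed to 6870 to 9185 in WT and to 11928 to 18607 in p47phox-/-, where Ccl22 was high. There 3 of the 12 rose (median 0.95), as did 0.625% of all genes tested. In gp91phox-/- they summed to 10009 to 12040. Whether such cells had a part in the values of the 10 genes was not tested.

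Genes whose pattern over the 9 libraries was most like that of a member were sought among 10559 genes with a mean of at least 50. These correlations rest on 9 libraries that share the group differences. For Ccl22 the closest were Arl8a, a lysosome-positioning GTPase (Pearson r 0.97), Ubap1 (0.96), Ttl (0.95), Tmem8b (0.95) and the stress-response factor Atf4 (0.95). Among the members with a mean of at least 50 the closest to Ccl22 was Zbtb46 (0.90, rank 44 of the 10559). Ccl17 and Xcr1 were under that mean and were not compared. For Flt3 they were Lrrk2, a kinase expressed in B cells and macrophages (0.99), Zfp507 (0.98), Pcif1 (0.98), Stac2 (0.98) and Ablim1 (0.98). Flt3 correlated at 0.96 with Itgae, at 0.95 with Ccr7 and at 0.93 with Cd209a, at 0.68 with Ccl22, and at -0.15 with Batf3. By closeness to Flt3 among the 10559 genes, these ranked 46, 96, 138, 1293 and 6050 in turn, so many other genes were closer.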

How the data were processed

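Macrophages sorted from the colon were sequenced as 9 libraries, 3 per genotype. Per the labels' protocols and the submitters' processing notes, reads were demultiplexed with bcl2fastq 2.19, trimmed with Cutadapt, aligned to mm10 with STAR 2.5.2b and counted with featureCounts; DESeq2 is also listed. What the authors deposited is a signal: reads divided by a size factor, called normalized counts here. All values (100%) were whole multiples of 1 step per library (tolerance 0.01), which gave the reads back. Strand setting and annotation are not given in the sources used here. The 14404 genes (all 10 members among them) reaching 10 normalized counts in 3 or more libraries were tested as log2(normalized count + 1) with limma 3.58.1 (R 4.3.3, 1 fit of 3 groups, empirical Bayes with trend, Benjamini-Hochberg), called at an adjusted p under 0.05. Fold changes are on that log2 scale, and for low genes with a library near 0 (Ccl17, Xcr1) they can differ widely from the ratio of means. The sources do not state that libraries are separate animals, and p-values then cover only sample-to-sample spread, which may be technical. Among the alternatives were tests of the recovered reads by edgeR 4.0.16 and by DESeq2 1.42.0. Steps were tested on simulated data. Members, lists and the analysis without p47phox-/- replicates 2 and 3 were chosen with earlier results of these data known. Named were the 10 members, the called genes of each list (up to 6 per comparison besides members) and the 5 genes most correlated with Ccl22 and with Flt3, unnamed genes and receptor segments aside. List genes given without a call, the neighbours of Ccl22 and the relatives of Cd209a were chosen after their values were seen. Promoters were found for 8 of 10 members in the RefSeq table (GRCm38.p6).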

Additional observations from a re-analysis of the deposited data

How the results depend on the processing

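Over 657 alternative values for the 10 members in the 3 comparisons, 621 kept direction and side of the threshold, 17 lost a call, 3 gained one and 16 changed sign, of which 0 were called in either analysis; Xcr1 had no value with a filter at 50. The count of members called in p47phox-/- versus WT, 1, became 0 without a mean-variance trend, with array weights and without p47phox-/- replicates 2 and 3 (chosen after seeing the data, leaving 1 library assumed to vary like the other groups), and 3 in DESeq2. With 1 library left out it ranged from 0 to 1, in gp91phox-/- versus WT from 4 to 5 and between the knockouts from 6 to 7.

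Signs changed for Flt3 in p47phox-/- versus WT with array weights (0.19), and with 1 library left out it ranged from -0.34 to 0.48. Without p47phox-/- replicates 2 and 3, Flt3 (0.15), Xcr1 (0.34) and Batf3 (-0.025) changed sign there, as Xcr1 (-1.01) and Batf3 (0.35) did between the knockouts. With 1 library left out, Xcr1 between the knockouts ranged from -0.37 to 1.70 and Batf3 from -0.53 to 0.0503. In gp91phox-/- versus WT such ranges were -1.81 to 0.45 for Ccl17 and -0.66 to 0.23 for Clec9a, which was also positive with quantile normalization (0.0161) and array weights (0.0499). The cause was not tested.

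All genes called numbered 162, 1016 and 1430 in the 3 comparisons. The first ranged from 16 (without p47phox-/- replicates 2 and 3) to 678 (DESeq2), the second from 520 (without gp91phox-/- replicate 2) to 2319 (array weights) and the third from 441 to 2276 (as the first). Without a trend they were 52, 596 and 898. For the other named genes, 193 of 1141 alternative values lost a call, 4 gained one and 0 changed sign. Low counts limit Ccl17 and Xcr1 most.

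Replicate numbers were not treated as pairs. Same-numbered libraries deviated together at -0.0398 to 0.0763 (9 pairs, 0 over 0.1). Of 18 best matches, each among 3 libraries, 9 were with the same number. With so few libraries these values cannot exclude a pairing. With the replicate number as a block, 1, 4 and 7 members were called as before, and 127, 877 and 1238 genes.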

Other observations

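The relatives of Cd209a in the same gene family did not all share its low level in gp91phox-/-. Mean normalized counts of Cd209f were 668 in WT, 1682 in p47phox-/- and 1162 in gp91phox-/-, and those of Cd209g 190.9, 317 and 258. Cd209d had 44.2, 39.7 and 11.9, and Cd209b 51, 126 and 30.2. These genes were chosen after their values were seen and were not tested here, and no source used here says how reads shared between relatives were counted.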
